A study of Mus musculus with 75 samples.

Results

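The genes described here encode 7 components of the renin-angiotensin system: the precursor Agt, the enzymes Ren1 and Ace, the receptor Agtr1a, the peptidases Mme and Enpep, and the prorenin receptor Atp6ap2. They were taken by symbol from a raw count table of 32245 genes, and all 7 passed the filter on low counts wherever they were tested. The table holds 75 bulk RNA-seq libraries of whole mouse kidney, made by the Smart-seq3 chemistry, in 12 groups. In each mouse of the UUO groups 1 ureter had been tied (unilateral ureter obstruction), which dams the urine and injures that kidney, and the contralateral (CL) kidney served as control. All kidneys were from adult mice and, apart from sham-operated controls, were taken 3 days after UUO. The design asks which genes changed in the obstructed kidney and whether TIE2 activation or loss of PDGFB altered that change.

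The ABTAA arm held 16 libraries from mice given control human IgG Fc (8 CL, 8 UUO) and 14 from mice given ABTAA (7 CL, 7 UUO, called ABT). ABTAA is an antibody that binds ANGPT2 and activates the endothelial receptor TIE2. The mice of this arm were C57BL6/J or wild-type mice from the breeding of the knockout strains. The Veptp arm held VeKO mice, in which tamoxifen had induced Cdh5-CreERT2, a Cre recombinase driven by an endothelial promoter, to delete floxed Veptp, a phosphatase that restrains TIE2 (6 CL, 8 UUO). Its VeWT controls (7 CL, 8 UUO) carried Cdh5-CreERT2 without induction on Veptp wt/lox. The Pdgfb arm held PbKO mice, in which a ubiquitously driven Actb-CreERT2 had deleted floxed Pdgfb throughout the body (4 CL, 4 UUO), and Cre-negative PbWT controls with wt/lox or lox/lox alleles (4 CL, 4 UUO). Kidneys of 2 sham-operated mice stand among the PbWT CL libraries and are not marked. The knockout strains and their breeding were on a mixed background, and all operated mice received carprofen.

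The renin-angiotensin system raises blood pressure and salt retention through the peptide angiotensin II. Renin, released from juxtaglomerular cells of the afferent arteriole, cuts angiotensinogen to angiotensin I, and ACE, held on endothelium and on the brush border of the proximal tubule, converts that to angiotensin II, which acts through AT1 receptors. Neprilysin (Mme) and aminopeptidase A (Enpep), also brush border enzymes, break down or reroute the angiotensin peptides, and Atp6ap2 binds prorenin and is also an accessory subunit of the vacuolar proton pump.

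On the GRCm38 (mm10) assembly, with the GENCODE M21 annotation, all 7 are protein-coding genes. Agt lies on the minus strand at chr8:124556534-124569706, Ren1 on the plus strand at chr1:133350510-133360325 and Ace on the plus strand at chr11:105967945-105989964. Agtr1a spans chr13:30336441-30382867 on the plus strand. Mme (chr3:63241537-63386030, plus strand) and Enpep (chr3:129269175-129332720, minus strand) share a chromosome, and Atp6ap2 is X-linked (chrX:12587801-12617049, plus strand). The values are sums over a gene's exons, so reads from alternative starts, such as the somatic and testis forms of Ace, are not separated. The table has no row for Ren2, a near-identical copy of Ren1 that some mouse strains carry, so with a mixed background the Ren1 values are uncertain to that extent.

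The sequences just before the starts of Ren1 and Ace are shown because these were the members called between PbKO and PbWT obstructed kidneys. They are the 100 bases before the RefSeq start (GRCm38.p6, plus strand), at chr1:133350574-133350673 and chr11:105967848-105967947. The GENCODE model of Ren1 begins further upstream. Capitals mark TATAAA on either strand, the letters of a TATA box.
Ren1: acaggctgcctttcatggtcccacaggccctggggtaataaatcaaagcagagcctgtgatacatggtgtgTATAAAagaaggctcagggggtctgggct
Ace: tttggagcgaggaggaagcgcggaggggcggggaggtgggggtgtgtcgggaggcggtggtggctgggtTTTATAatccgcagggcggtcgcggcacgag
RefSeq promoters were matched for 6 of the 7 members, with 9 starts in all. The 6 letters occurred in 4 of these 9 stretches, those of Agt, Ren1, Enpep and the upstream start of Ace, and in 5.56% of the 32851 stretches of the same length. The Ace stretch was the richer in G and C, at 69% against 52% for Ren1 and a median of 55% over all promoters.

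Library totals ran from 172827 to 2341800 counts (median 757897). Levels are given in CPM, which scales a library's counts to a common total, here adjusted by TMM factors. Library names came in 2 forms, split by a low line ("_", 30 libraries, in the ABTAA and Veptp arms) and plain (45 libraries), and the labels do not say what the form stands for. In the Veptp arm the share of counts on the ribosomal RNA-like genes Gm42418 and AY036118 was 0.325% to 0.778% in the split and 9.18% to 21.8% in the plain libraries. In 24 of the 75 libraries both Xist and Y-linked genes reached 10 counts, so these may hold RNA of female and male mice. They included all 4 PbKO UUO libraries, so the Pdgfb arm could not be fitted without them. In the Veptp arm 8 libraries with split names carried numbers that are VeWT in one kidney and VeKO in the other. VeKO CL replicate 2 had 221.6 CPM of the injury gene Havcr1 against at most 13.8 CPM in the other VeKO CL libraries. In PbWT CL Havcr1 had a median of 42.8 CPM and reached 70.2 CPM. In PbKO CL 1 library held 54.7 CPM against at most 11.1 CPM in the others. The highest value was 24.1 CPM in IgG CL, 17.1 CPM in ABT CL and 29.8 CPM in VeWT CL. Of the targeted genes, Ptprb, which encodes VEPTP, had a median of 31.9 CPM in VeKO CL against 60.3 in VeWT CL and of 25.9 in VeKO UUO against 39.8 in VeWT UUO. Pdgfb had a median of 38.0 CPM in the libraries labelled PbKO UUO against 56.7 in PbWT UUO, but of 17.2 in those labelled PbKO CL against 8.66 in PbWT CL, so the CL libraries go against the label. None of these 4 differences passed the test (edgeR, lowest adjusted p = 0.124), and counts over a whole gene also hold exons outside a deletion. Every genotype direction below is therefore that of libraries labelled PbKO or VeKO.

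Across the 12 groups the widest range of mean levels was that of Ace, whose highest group mean was 6.06 times its lowest, and the narrowest that of Enpep, at 1.46 times. The Ace range went with the name form, since its highest group, VeWT CL, joined split libraries with a mean of 405 CPM and plain ones with a mean of 94.9 CPM. Among plain libraries the group means of Ace ran from 44.9 CPM in PbWT UUO to 124 CPM in IgG CL. Of the 11 gaps between neighbours in the order of group means, none exceeded the larger of the neighbours' SDs for Agt, Ren1, Agtr1a, Mme and Enpep. For Ace only the gap between PbKO UUO (68.8 ± 17.1 CPM, SD, n = 4) and the next higher group, PbKO CL (101 ± 11.1 CPM, SD, n = 4), did. For Atp6ap2 only the gap between PbKO UUO (222 ± 10.3 CPM, SD, n = 4) and PbKO CL (259 ± 25.4 CPM, SD, n = 4) did. UUO groups made up all 6 of the lowest means for Mme, 5 of 6 for Agtr1a, Enpep and Atp6ap2, 4 of 6 for Ren1 and Ace, and 1 of 6 for Agt.

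**Figure D1:**
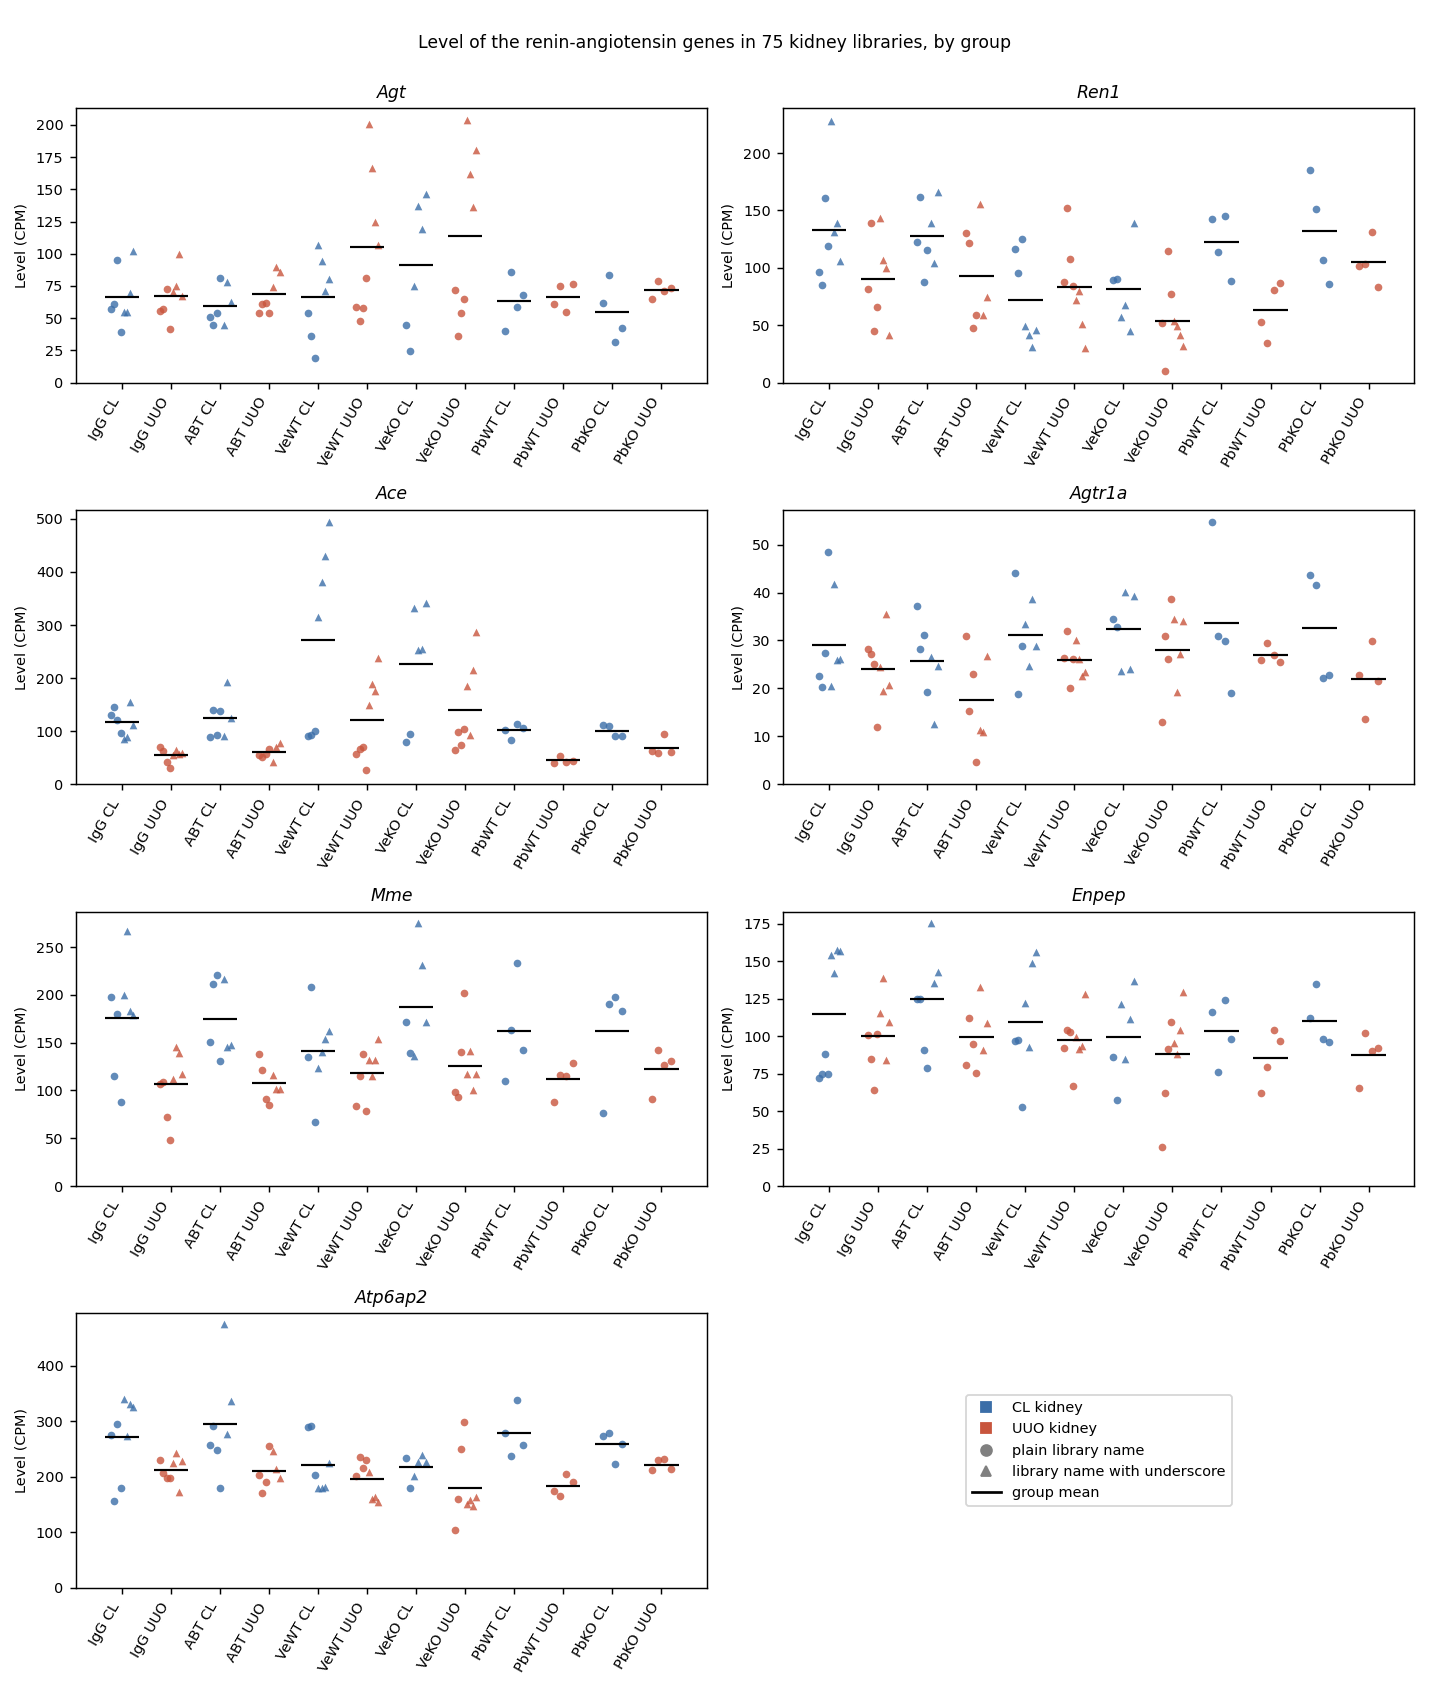
Level in CPM (y axis) of each of the 7 genes in every library of the 12 groups (x axis); points are libraries, blue for CL and orange for UUO, triangles for split names, and lines are group means. Mean Ace was lower in UUO than in CL within each pair of groups, and its triangles in the Veptp groups mostly stand above the circles, reaching 493.2 CPM.

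UUO and CL kidneys were compared in each of the 6 mouse groups with edgeR's quasi-likelihood test, and a gene was called at a Benjamini-Hochberg adjusted p under 0.05. Ace, the converting enzyme, fell in IgG, ABT, PbWT and PbKO. Mme fell in IgG and ABT, Atp6ap2 in ABT and PbWT, and Ren1 in PbWT. Agt, Agtr1a and Enpep were called in none of the 6 groups, and no member was called higher. The calls came to 2 of 7 members in IgG (against 34.5% of all genes tested), 3 in ABT (25.1%), 0 in VeWT (18.4%), 0 in VeKO (7.96%), 3 in PbWT (37.3%) and 1 in PbKO (6.37%). In VeWT and VeKO, where edgeR called 0 members, 1 member each had an unadjusted p under 0.05, as had 3507 and 2409 of the 11916 genes tested. DESeq2 called 0 and 1 members (2360 and 1184 genes) and edgeR's exact test 0 and 0 (2004 and 632 genes). With the name form as a covariate edgeR called 2 and 3 members (4043 and 2562 genes). With the number in split library names as a block it called 2 and 2 (3551 and 2437 genes). The members' median log2 fold change was -0.33 in IgG, -0.45 in ABT, -0.18 in VeWT, -0.30 in VeKO, -0.54 in PbWT and -0.34 in PbKO, while the median of all genes tested lay between -0.01 and 0.04. Fewer cells of a type and less RNA per cell cannot be told apart in such bulk values. The study's methods take a single animal as the experimental unit, while the labels used here name no mouse for a library, and the p-values measure the spread between libraries. In ABT, 3 CL and 3 UUO libraries share numbers that were taken to pair them, and a fit with that number as a block called the same 3 members.

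**Figure D2:**
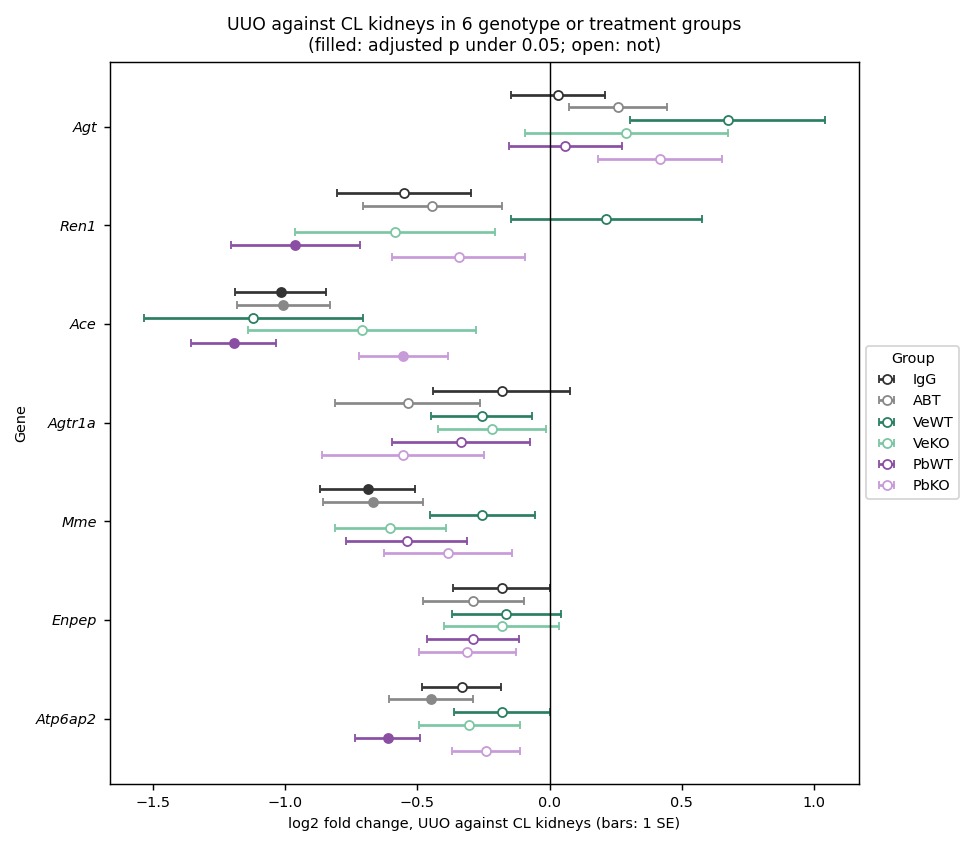
The log2 fold change of UUO against CL kidneys (x axis) for each of the 7 genes (y axis) in the 6 mouse groups, with bars of 1 SE; filled points had an adjusted p under 0.05. All 6 Ace points lie left of 0, from -1.19 to -0.55, and all 6 Agt points lie right of it, none of them filled, with those of IgG and PbWT turning below 0 under alternatives given with Agt.

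Agt encodes angiotensinogen, the substrate of renin. Its medians in the ABTAA arm were 59.2 CPM in IgG CL (39.6 to 102), 68.6 CPM in IgG UUO (41.9 to 99.7), 53.8 CPM in ABT CL (44.5 to 81.2) and 61.9 CPM in ABT UUO (53.8 to 89.5). The UUO and CL ranges overlapped in all 6 mouse groups. The log2 fold change was above 0 in all 6, from 0.03 ± 0.18 (SE) in IgG to 0.67 ± 0.37 in VeWT, and the lowest adjusted p was 0.232, in VeWT. The direction was not stable in IgG, where it was -0.16 in plain libraries only, -0.06 without the libraries holding Xist and Y-linked genes, and below 0 in 5 of 30 fits that left out 1 library. In PbWT it was below 0 in 3 of 16 such fits, down to -0.12.

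In the Veptp arm the Agt level went with the form of the library name, being 1.34 ± 0.14 higher on the log2 scale in split than in plain libraries (edgeR, adjusted p = 2.18e-10, with 62.4% of all genes differing between the forms). In VeWT CL the split libraries held 71.3 to 107 CPM and the plain ones 19.3 to 54.4 CPM, with no overlap. With the form as a covariate the UUO difference was 0.73 (adjusted p = 0.00153) in VeWT and 0.47 (adjusted p = 0.0722) in VeKO. The VeKO value, 0.29 ± 0.38 over all libraries, was 0.65 (adjusted p = 0.00355) with name form and Xist as covariates, 0.77 (adjusted p = 0.00564) with the shared library number as a block, and 0.11 (adjusted p = 0.912) without VeKO CL replicate 2. Within the split libraries the Agt difference was 0.82 (adjusted p = 0.00757) in VeWT, and within the plain ones 0.63 (adjusted p = 0.182). The VeWT value was 0.47 (adjusted p = 0.0465) with the block and 0.34 (adjusted p = 0.760) without the 8 libraries of opposite genotype. In this arm the blocks hold every split library and no plain one, so the block also takes up the name form.

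Ren1 encodes renin, whose cut of angiotensinogen is the limiting step of the cascade. In PbWT its level was 142, 114, 145 and 88.2 CPM in the 4 CL libraries and 52.7, 34.3, 80.7 and 87.0 CPM in the 4 UUO libraries. Every UUO library lay below every CL library, by a narrow margin between the nearest values. The log2 fold change was -0.96 ± 0.24 (SE, adjusted p = 0.00282), so that UUO stood at 0.514 times the CL level, and leaving out any library of the arm kept the call (-1.14 to -0.75). With all 12 groups in 1 fit the value was -0.96 and not called (adjusted p = 0.0808). The 5 other alternatives that kept every library gave -0.96 to -0.59, each called. In PbKO the CL libraries held 185, 152, 107 and 85.5 CPM and the UUO libraries 101, 104, 131 and 83.4 CPM. These ranges overlapped, and -0.34 ± 0.25 was not called (adjusted p = 0.478). Leaving out 1 library of the arm gave -0.53 to -0.13, called in 0 of 16 fits.

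In the ABTAA arm the Ren1 medians were 125 CPM in IgG CL (84.8 to 228), 90.8 CPM in IgG UUO (41.5 to 144), 123 CPM in ABT CL (87.8 to 166) and 74.4 CPM in ABT UUO (47.9 to 155). In each mouse group 4 UUO libraries lay below the lowest CL library and the others overlapped. The differences of -0.55 ± 0.25 in IgG (adjusted p = 0.0895) and -0.44 ± 0.26 in ABT (adjusted p = 0.235) were not called. Without IgG UUO replicate 2 the IgG value was -0.67 (adjusted p = 0.0404), and without IgG UUO replicate 5 it was -0.68 (adjusted p = 0.0372). The IgG value of Ren1 was also called without a filter (-0.60), with Xist as a covariate (-0.63) and with name form and Xist (-0.65).

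In the Veptp arm Ren1 was 0.95 ± 0.19 lower on the log2 scale in split than in plain libraries (adjusted p = 4.31e-05), a direction opposite to that of Agt and Ace. The UUO difference was 0.21 ± 0.36 in VeWT and -0.58 ± 0.38 in VeKO, neither called. The VeWT value was -0.01 in plain libraries only, -0.01 with Xist as a covariate and -0.06 with the block. With the form as a covariate the VeKO value was -0.75 (adjusted p = 0.0379). Within the forms it was -0.86 (adjusted p = 0.0485) in split and -0.36 (adjusted p = 0.897) in plain libraries. The lowest Ren1 value of all, 10.3 CPM in a VeKO UUO library, rested on 2 counts.

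Ace makes angiotensin II from angiotensin I and also breaks down bradykinin. In the ABTAA arm its medians were 117 CPM in IgG CL (85.5 to 155), 58.7 CPM in IgG UUO (29.9 to 70.7), 125 CPM in ABT CL (89.2 to 193) and 56.9 CPM in ABT UUO (42.9 to 78.2). No UUO library reached the lowest CL library in either mouse group. The log2 fold changes were -1.02 ± 0.17 in IgG (adjusted p = 1.44e-05) and -1.01 ± 0.18 in ABT (adjusted p = 5.14e-05), so that UUO stood at 0.494 and 0.498 times the CL level. Within the split libraries they were -0.84 (adjusted p = 0.00964) and -1.09 (adjusted p = 0.00391). Within the plain ones they were -1.13 (adjusted p = 0.000486) and -0.93 (adjusted p = 0.00350).

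In PbWT, the CL kidneys had Ace at 103, 84.4, 114 and 106 CPM and the UUO kidneys at 41.0, 53.3, 42.4 and 43.0 CPM. The groups were well apart, with a log2 fold change of -1.19 ± 0.16 (adjusted p = 1.61e-06) and UUO at 0.437 times CL. In PbKO it stood at 111, 110.1, 91.3 and 91.5 CPM in CL and at 62.0, 58.0, 94.3 and 60.9 CPM in UUO. Replicate 3 of the PbKO UUO libraries lay among the CL values and the other 3 below them. The difference of -0.55 ± 0.17 passed narrowly (adjusted p = 0.0474, UUO at 0.682 times CL). It was kept in 4 of the 16 fits that left out 1 library of the arm, with values of -0.77 to -0.47 and adjusted p of 0.00766 to 0.173. The Ace call in PbKO was also lost by DESeq2 (adjusted p = 0.0664), by the exact test (adjusted p = 0.0649), without a filter, without TMM scaling and with all 12 groups in 1 fit (adjusted p = 0.757), and kept with Xist as a covariate.

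In the Veptp arm Ace was 1.61 ± 0.14 higher on the log2 scale in split than in plain libraries (adjusted p = 6.05e-12). In VeWT CL the plain libraries held 91.2, 92.5 and 101 CPM and the split ones 314 to 493.2 CPM, with no overlap. Over both forms the UUO difference was -1.12 ± 0.41 in VeWT (adjusted p = 0.0579) and -0.71 ± 0.43 in VeKO (adjusted p = 0.391), neither called. With the shared library number as a block both Ace values were called, at -0.82 in VeWT (adjusted p = 0.000473) and -0.70 in VeKO (adjusted p = 0.00829). The blocks hold every split library of the arm and no plain one, so that fit also takes up the name form. Some blocks span both genotypes. The VeWT value was also called with all 12 groups in 1 fit (-1.15, adjusted p = 0.00184) and without any one of VeWT CL replicates 1, 2 and 3 and VeWT UUO replicate 8 (-1.33 to -1.24), and it was -0.87 (adjusted p = 0.325) without the 8 libraries of opposite genotype.

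Within the split libraries the Ace difference was -1.04 (adjusted p = 0.00219) in VeWT and -0.65 (adjusted p = 0.0504) in VeKO, and within the plain ones -0.73 (adjusted p = 0.0559) and -0.03 (adjusted p = 0.994). With the form as a covariate it was -0.98 (adjusted p = 6.03e-05) in VeWT and -0.44 (adjusted p = 0.119) in VeKO. The VeKO value of Ace was called with Xist as a covariate (-1.07, adjusted p = 0.0271) and with both covariates (-0.68, adjusted p = 0.00336). A fit with a separate UUO effect for each form, over both genotypes, gave -0.85 ± 0.15 in split and -0.42 ± 0.23 in plain libraries, and the difference between these was not called (adjusted p = 0.655), as for all but 0.436% of the genes tested.

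**Figure D3:**
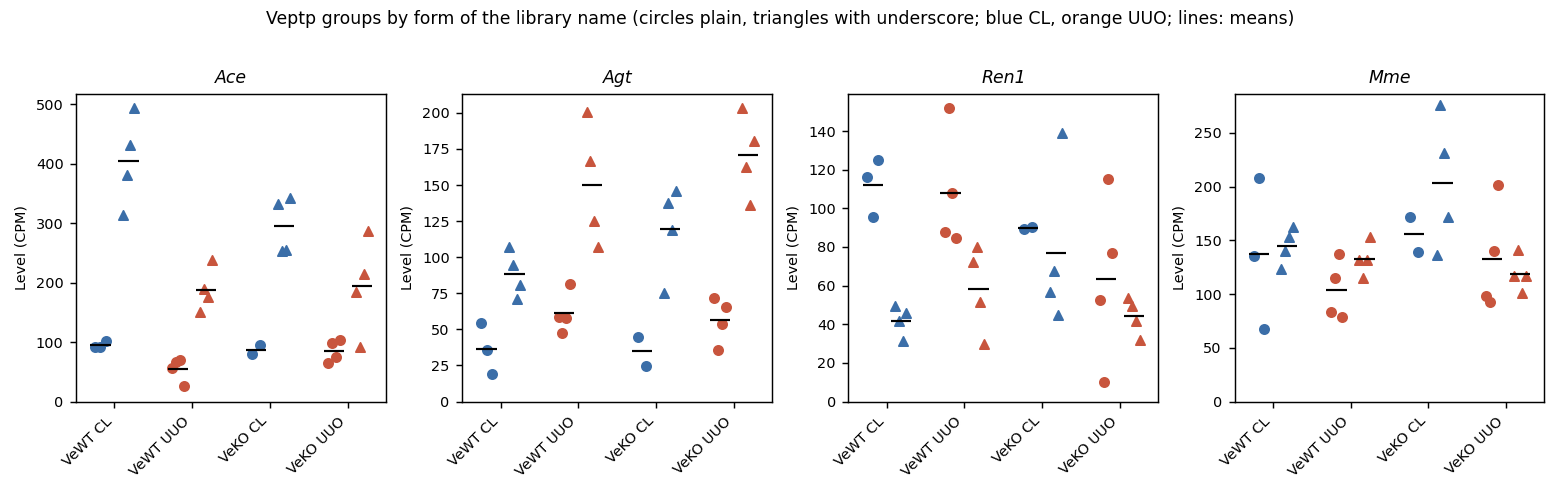
Levels in CPM (y axis) of Ace, Agt, Ren1 and Mme in the 4 Veptp groups (x axis), with plain library names as circles, split names as triangles, and a line at each mean. Mean Ace and Agt levels were higher in the triangles in every group (Ace in VeWT CL 405 against 94.9 CPM), mean Ren1 was lower, and Mme was not called between the forms (0.05 ± 0.14 on the log2 scale).

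Agtr1a encodes the main AT1 receptor of the mouse and was counted at 2 to 93 reads a library. Its medians were 26.0 CPM in IgG CL (20.3 to 48.4), 24.8 CPM in IgG UUO (12.0 to 35.4), 26.5 CPM in ABT CL (12.5 to 37.1) and 15.2 CPM in ABT UUO (4.73 to 31.0). The UUO and CL ranges overlapped in all 6 mouse groups. The log2 fold change was below 0 in all 6, from -0.55 ± 0.31 in PbKO to -0.18 ± 0.26 in IgG, and the lowest adjusted p was 0.158, in ABT. Without TMM scaling it was 0.03 in IgG and 0.03 in PbWT, and without PbWT CL replicate 1 it was 0.02 in PbWT. It was not called between name forms in the Veptp arm (-0.10 ± 0.14, adjusted p = 0.541).

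Mme encodes neprilysin, which turns angiotensin I to the heptapeptide angiotensin-(1-7) and degrades natriuretic peptides. In the ABTAA arm its medians were 182 CPM in IgG CL (87.9 to 267), 111 CPM in IgG UUO (47.8 to 145), 151 CPM in ABT CL (130.3 to 221) and 102 CPM in ABT UUO (85.1 to 139). The ranges overlapped, with 2 of 8 IgG and 6 of 7 ABT obstructed kidneys below the lowest CL library. The log2 fold changes were -0.69 ± 0.18 in IgG (adjusted p = 0.00259) and -0.67 ± 0.19 in ABT (adjusted p = 0.00736), and both were kept whichever library was left out. Without TMM scaling they were -0.48 (adjusted p = 0.0633) and -0.55 (adjusted p = 0.0616). Over both mouse groups the difference was -0.65 in split and -0.72 in plain libraries, each called (adjusted p = 0.00156 and 0.000500). In the plain libraries of ABT alone, Mme was at -0.67 and not called (adjusted p = 0.0582).

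In the other mouse groups Mme was not called. In VeKO the difference was -0.60 ± 0.21 (adjusted p = 0.0723). Without VeKO CL replicate 2, the library high in Havcr1, it was -0.68 (adjusted p = 0.0446), and with the name form as a covariate -0.61 (adjusted p = 0.0197). It was also called by DESeq2, with all 12 groups in 1 fit, in split libraries only (-0.82, adjusted p = 0.00388), without the libraries holding Xist and Y-linked genes, and without VeKO CL replicate 3 or VeKO UUO replicate 4. Mme was not called in VeKO by the exact test, with the shared library number as a block, or in plain libraries only. The latter fit called 0 of 7778 genes, and the plain means of Mme were 156 CPM in CL and 133 CPM in UUO. In PbWT the CL libraries held 109, 163, 233 and 142 CPM and the UUO libraries 87.8, 116, 116 and 129 CPM, which overlapped, and the difference was -0.54 ± 0.23 (adjusted p = 0.0670). This value was called without PbWT CL replicate 1 (-0.70, adjusted p = 0.0176) or PbKO CL replicate 1 (-0.54, adjusted p = 0.0151), by the exact test (-0.53, adjusted p = 0.0372), without a filter and with Xist as a covariate (-0.72, adjusted p = 0.000245), and without TMM scaling it was -0.16 (adjusted p = 0.567). The Mme difference was -0.38 ± 0.24 in PbKO and -0.25 ± 0.20 in VeWT.

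Enpep encodes aminopeptidase A, which trims angiotensin II to angiotensin III. Its group medians stayed between 88.2 CPM in PbWT UUO and 125 CPM in ABT CL. The log2 fold change of UUO against CL lay between -0.31 and -0.16 in the 6 mouse groups, and the lowest adjusted p was 0.202, in PbWT. Its direction turned without TMM scaling in IgG (0.02) and PbWT (0.08), in plain libraries only in IgG (0.21), VeWT (0.13) and VeKO (0.08), and in VeWT without the 8 libraries of opposite genotype (0.08). It was higher in split than in plain libraries, by 0.51 ± 0.10 in the ABTAA arm (adjusted p = 8.34e-05, with 39.7% of all genes differing) and by 0.34 ± 0.12 in the Veptp arm (adjusted p = 0.0167). In IgG CL the split libraries held 142 to 158 CPM and the plain ones 72.4 to 88.2 CPM, with no overlap, while in IgG UUO the forms overlapped, at 84.2 to 139 and 64.1 to 102 CPM. In the ABTAA arm the UUO difference was -0.41 ± 0.13 in split libraries (adjusted p = 0.0111) and not called in plain ones (adjusted p = 0.992). The difference between the forms was not called (adjusted p = 0.466).

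Atp6ap2 encodes the prorenin receptor. In PbWT it stood at 279, 238, 338 and 257 CPM in CL and at 174, 165, 204 and 191 CPM in UUO. The groups did not overlap, and the log2 fold change was -0.61 ± 0.12 (adjusted p = 0.000324, UUO at 0.654 times CL). In PbKO it stood at 274, 279, 223 and 259 CPM in CL and at 212, 229.8, 232 and 214 CPM in UUO. These overlapped, and -0.24 ± 0.13 was not called (adjusted p = 0.302). Without TMM scaling, which moved the median of all genes in PbWT from 0.04 to 0.41, the PbWT value was -0.24 (adjusted p = 0.132).

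In the ABTAA arm the Atp6ap2 medians were 285 CPM in IgG CL (156 to 341), 216 CPM in IgG UUO (173 to 242), 278 CPM in ABT CL (179 to 476) and 203 CPM in ABT UUO (170.2 to 255). Both pairs of ranges overlapped. The difference was called in ABT (-0.45 ± 0.16, adjusted p = 0.0349) and not in IgG (-0.33 ± 0.15, adjusted p = 0.0865), but the difference between these values was itself not called (-0.12 ± 0.22, adjusted p = 0.999). The ABT call was lost without any one of ABT CL replicates 5 and 7 and ABT UUO replicates 2, 3, 6 and 7, and without ABT CL replicate 5 the value was -0.29 (adjusted p = 0.155). It was lost as well by the exact test (-0.43) and without TMM scaling (-0.33, adjusted p = 0.223). The IgG value of Atp6ap2 was called with the name form as a covariate (-0.32, adjusted p = 0.0481) and without IgG CL replicate 2 or 4 or ABT CL replicate 5. Within the split libraries the Atp6ap2 difference was -0.71 (adjusted p = 0.00910) in ABT and -0.52 (adjusted p = 0.0240) in IgG, and within the plain ones -0.20 (adjusted p = 0.536) and -0.10 (adjusted p = 0.763). Atp6ap2 itself was 0.27 ± 0.10 higher in split than in plain libraries of the ABTAA arm (adjusted p = 0.0233) and 0.41 ± 0.10 lower in those of the Veptp arm (adjusted p = 0.000766). Its UUO difference in the latter arm was -0.18 ± 0.18 in VeWT and -0.30 ± 0.19 in VeKO, neither called, and with the name form as a covariate -0.40 (adjusted p = 0.0468) in VeKO. Among split VeKO libraries Atp6ap2 stood at 202 to 239 CPM in CL and 147 to 163 CPM in UUO, with no overlap. The plain ones had means of 207 CPM in CL (n = 2) and 204 CPM in UUO (n = 4).

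Markers of kidney cell types moved in the same comparisons. Of 9 proximal tubule markers, 9 fell in UUO in IgG, 8 in ABT, 4 in VeWT, 3 in VeKO, 9 in PbWT and 5 in PbKO, and none was at 0 in any library. Their summed level was 7090.3 to 9958 CPM in IgG CL and 3103 to 5195 CPM in IgG UUO. Of 6 leukocyte markers, 6 rose in IgG, 5 in ABT, 5 in VeWT, 4 in VeKO, 6 in PbWT and 3 in PbKO. Of 5 endothelial markers, 2 rose in IgG, 1 in ABT and 1 in PbWT, and 1 fell in VeKO. Of the smooth muscle and pericyte markers, 2 of 3 tested rose in IgG and in ABT, 3 of 5 in VeWT and in PbWT, 1 of 5 in PbKO and 0 of 5 in VeKO. Of the podocyte markers 1 rose in IgG, 2 fell in PbWT and 1 fell in PbKO, and the 1 adipocyte marker tested rose in IgG and fell in PbWT. The part of these cell types in the members' changes was not tested.

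Libraries labelled PbKO were compared with those labelled PbWT, separately in the UUO and CL kidneys, where the Pdgfb level went with the label in UUO and against it in CL. Ren1 and Ace were higher in the obstructed kidneys labelled PbKO than in those labelled PbWT, 2 of 7 members against 18.6% of all genes tested, and no member was called lower. The Ren1 values given above stood at 34.3 to 87.0 CPM in PbWT UUO and 83.4 to 131 CPM in PbKO UUO, where 3 of 4 PbKO libraries lay above every PbWT library. The difference was 0.75 ± 0.25 (adjusted p = 0.0349), a fold of 1.68. For Ace the ranges were 41.0 to 53.3 and 58.0 to 94.3 CPM, with no overlap. The difference was 0.65 ± 0.16 (adjusted p = 0.00672), a fold of 1.57. The Atp6ap2 ranges of 165 to 204 and 212 to 232 CPM did not overlap either, but 0.29 ± 0.13 was not called (adjusted p = 0.107). The members' median was 0.18 and that of all genes -0.02.

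Both calls depended on single libraries. For Ace the value without PbKO UUO replicate 3 was 0.44 (adjusted p = 0.0806), the only 1 of 16 such fits that lost the call. For Ren1 the call was kept in 11 of 16 and lost without PbWT UUO replicate 1 or 2 or PbKO UUO replicate 1, 2 or 3, with values of 0.54 to 0.92 over the 16. Without TMM scaling, which moved the median of all genes from -0.02 to -0.29, Ace was at 0.37 (adjusted p = 0.101) and Ren1 at 0.47 (adjusted p = 0.152). With all 12 groups in 1 fit they were 0.63 (adjusted p = 0.498) and 0.73 (adjusted p = 0.384). Sex markers also differed between these obstructed kidneys. The PbWT UUO libraries held 220, 73, 1 and 1 counts of the Y-linked genes, and the PbKO UUO libraries 31, 99, 102 and 123. Xist had 207, 704, 1015 and 460 counts in PbWT UUO and 70, 145, 252 and 58 in PbKO UUO. With Xist as a covariate Ace was at 0.66 (adjusted p = 0.00538) and Ren1 at 0.69 (adjusted p = 0.0359). The part of sex in these differences was not otherwise tested.

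In the CL kidneys 0 of 7 members were called between PbKO and PbWT by edgeR, DESeq2 or the exact test, against 0% of all genes, and none had an unadjusted p under 0.05 (379 of all genes did). Ren1 differed by 0.13 ± 0.25 and Ace by 0.01 ± 0.16. The test of whether the UUO difference itself depended on genotype called 0 members by edgeR and by DESeq2 (8.55% of all genes by edgeR), with Ace and Atp6ap2 at an unadjusted p under 0.05, as were 2369 of the 10923 genes tested. Its values were 0.64 ± 0.23 for Ace (adjusted p = 0.0883), 0.37 ± 0.18 for Atp6ap2 (adjusted p = 0.227) and 0.62 ± 0.35 for Ren1 (adjusted p = 0.318). These comparisons share libraries with the UUO against CL comparisons of the same arm.

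Other cell markers differed between the same obstructed kidneys. Of the 9 proximal tubule markers 8 were higher in PbKO UUO, with sums of 2397 to 3448 CPM in PbWT UUO and 4335 to 7271 CPM in PbKO UUO. Lower in PbKO UUO were 3 of 6 leukocyte, 3 of 5 smooth muscle and pericyte and 2 of 5 endothelial markers. In PbKO UUO replicate 3, the library highest in Ace, the proximal tubule sum was 6835 CPM. Their part in the Ren1 and Ace differences was not tested.

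**Figure D4:**
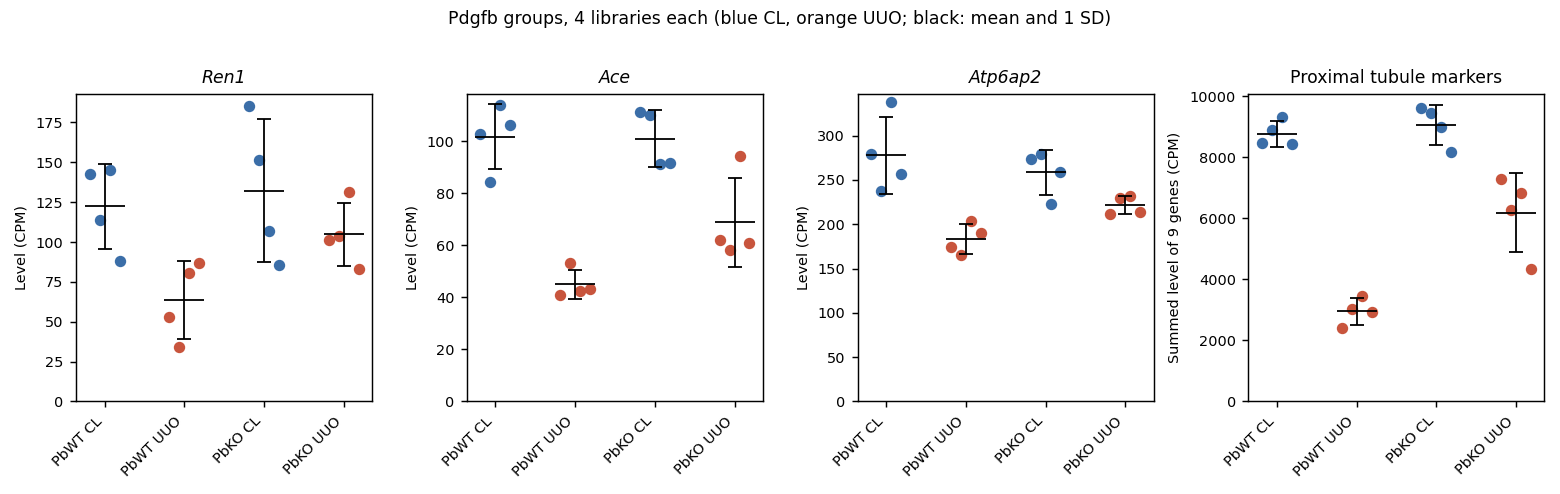
Levels in CPM (y axis) of Ren1, Ace and Atp6ap2, and in the last panel the summed proximal tubule markers, in the 4 Pdgfb groups (x axis), with each library as a point and black marks for the mean and 1 SD. The PbKO UUO libraries of Ace, at 58.0 to 94.3 CPM, lie above the PbWT UUO libraries, at 41.0 to 53.3 CPM.

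Neither manipulation of TIE2 signalling gave a called member. ABT against IgG called 0 of 7 members in UUO (0% of all genes), in CL (0%) and in the interaction (0%) by edgeR and by DESeq2, and none had an unadjusted p under 0.05. Over all genes 340, 303 and 315 had such a p, and DESeq2 called 0 in each. The difference farthest from 0 was that of Agtr1a in UUO, -0.49 ± 0.28 (unadjusted p = 0.0877, adjusted p = 1.000). VeKO against VeWT likewise called 0 of 7 in UUO (0%), in CL (0%) and in the interaction (0%) by edgeR and DESeq2, with none at an unadjusted p under 0.05. Over all genes 426, 229 and 323 had such a p, DESeq2 called 1, 0 and 0, and the exact test called 4 in UUO and 0 in CL. Ren1 differed by -0.60 ± 0.35 in UUO, with an interaction of -0.80 ± 0.52. In CL, Agt differed by 0.49 ± 0.39 and Mme by 0.43 ± 0.21 (edgeR, unadjusted p = 0.0510 for Mme). With SE of this size a p that misses the threshold does not show that the groups were alike.

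Of 16 other genes of the renin-angiotensin and kinin pathways, 8 passed the filter in the ABTAA and Pdgfb arms and 9 in the Veptp arm. Between UUO and CL, 2 fell in IgG, 2 in ABT, 1 in VeWT, 0 in VeKO, 2 in PbWT and 1 in PbKO, and none rose. Over all genes tested the share called was 34.5%, 25.1%, 18.4%, 7.96%, 37.3% and 6.37% in that order. Klk1, a tissue kallikrein that frees kinins, fell by edgeR in all but VeKO, from -3.74 ± 0.27 in PbWT (adjusted p = 2.03e-10) to -0.84 ± 0.25 in PbKO (adjusted p = 0.0403). Klk1 has close copies in the kallikrein family, so its counts are uncertain to that extent. Anpep, aminopeptidase N, fell in IgG (-1.26 ± 0.23), ABT (-0.83 ± 0.23) and PbWT (-1.20 ± 0.24). The list's median log2 fold change lay between -0.15 in PbKO and 0.12 in VeKO.

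Klk1 was also the 1 gene of that list called between PbKO and PbWT obstructed kidneys, where 18.6% of all genes tested were called. Its level was 132 to 218 CPM in PbWT UUO and 931 to 1192 CPM in PbKO UUO, with no overlap. In the CL kidneys it was 1081 to 3955 CPM in PbWT and 1371 to 2111 CPM in PbKO, which overlapped. The difference in UUO was 2.58 ± 0.26 (adjusted p = 3.33e-07), and the interaction 2.90 ± 0.36 (adjusted p = 1.86e-05).

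Of 9 genes known from juxtaglomerular and macula densa cells, 4 passed the filter in the ABTAA and Pdgfb arms and 5 in the Veptp arm. Between UUO and CL, 3 rose in IgG, 1 in ABT, 2 in VeWT and 2 in PbWT, and 0 in VeKO and PbKO, with none lower. Over all genes tested the share called was 34.5%, 25.1%, 18.4%, 37.3%, 7.96% and 6.37% in that order. Ptger4, a prostaglandin E2 receptor, rose in IgG (1.08 ± 0.28), ABT (1.00 ± 0.28), VeWT (1.02 ± 0.30) and PbWT (0.84 ± 0.26). Pde3b, a phosphodiesterase, rose in IgG (0.83 ± 0.32), VeWT (1.31 ± 0.39) and PbWT (1.14 ± 0.27), and Rbpj, the DNA-binding partner of Notch, in IgG (1.01 ± 0.24). None of these 3 is restricted to juxtaglomerular cells. Akr1b7, a marker of renin cells, had 0 to 21 counts a library and was not tested, and the receptor genes Agtr1b and Agtr2 had 0 to 2.

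Over the 75 libraries the genes whose log2 levels followed each member most closely, by Pearson's r among 10342 genes, were Cyp4a31 (0.916), Fmo1 (0.911) and Ghr (0.910) for Ace, Clec2h (0.740), Itpr2 (0.708) and Car2 (0.688) for Ren1 and Pofut2 (0.788), 0610040J01Rik (0.782) and Elf3 (0.766) for Agt. For Mme they were Gm4450 (0.811), Slc22a13 (0.794) and Aadat (0.781), for Enpep Lonp2 (0.734), Nxt2 (0.693) and Fastkd2 (0.692), for Atp6ap2 Paics (0.834), Apmap (0.797) and Eif4a2 (0.790) and for Agtr1a Fmo4 (0.525), Cdip1 (0.519) and Etv1 (0.484). Among the members themselves the highest r were 0.614 between Ren1 and Atp6ap2 and 0.557 between Enpep and Atp6ap2, and that of Ace with Ren1 was -0.251. These r are a description only, since the libraries share groups, name forms and depth.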

How the data were processed

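Whole kidneys were profiled by bulk Smart-seq3 RNA-seq in 75 libraries. The authors merged 4 wells per sample, mapped reads to mm10 with STAR 2.7.3a, removed duplicate reads with UMI-tools 1.1.4 and deposited raw counts per gene from featureCounts (Subread 1.4.6-p5); the annotation is not given in the sources used here. Of the 32245 genes, 4299 had no count in any library. Groups were taken from the sample labels.

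Counts were fitted with edgeR 4.0.16 (R 4.3.3, limma 3.58.1) by the quasi-likelihood test with TMM scaling and filterByExpr, in 1 fit per arm over its 4 groups. P-values were adjusted by Benjamini-Hochberg over all genes tested in the arm, and the SE is the log2 fold change divided by the root of F. Levels are CPM with TMM factors over all 75 libraries. The scripts were tested on simulated counts. The 7 members and the gene lists were chosen with earlier results of these data known. All members are covered in the UUO against CL comparisons, and in the other comparisons the called members and some that were not called. The other listed genes are named where called. The genes most like a member were found by Pearson's r of log2(CPM + 1) among genes with a mean of at least 10 CPM. Alternatives included DESeq2 1.42.0, edgeR's exact test, no TMM, no filter, covariates for name form and Xist, a replicate block and leaving out each library.

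In the ABT group CL and UUO libraries share the numbers 9, 11 and 12, and same-numbered libraries deviated together from their group means (r = 0.360, 0.192 and 0.145), so these numbers were taken to pair them. No 2 replicates agreed within sampling noise. Intervals and SE cover only the spread between these libraries.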

Additional observations from a re-analysis of the deposited data

Results flagged for a closer look

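Of the 84 combinations of a member and a group, 4 held a library far from the others of its group by Dixon's test, and chance alone flags about 1 in 20. Ace stood at 53.3 CPM in PbWT UUO replicate 2, where the nearest library had 43.0 CPM, and at 94.3 CPM in PbKO UUO replicate 3, where the nearest had 62.0 CPM. Both lie in the PbKO against PbWT comparison of obstructed kidneys, where the Ace difference was 0.65 ± 0.16 with all libraries, 0.74 (adjusted p = 0.00607) without the first and 0.44 (adjusted p = 0.0806) without the second. Mme stood at 202 CPM (68 counts) in VeKO UUO replicate 4, where the nearest library had 141 CPM. Without it the UUO difference of Mme in VeKO was -0.73 (adjusted p = 0.0189), against -0.60 ± 0.21 with it. Mme stood at 76.7 CPM (58 counts) in PbKO CL replicate 1, where the nearest had 183 CPM. Without it the UUO difference of Mme in PbKO was -0.64 (adjusted p = 0.0515), against -0.38 ± 0.24 with it.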

How the results depend on the processing

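No called member value changed sign under any alternative run, while values between UUO and CL that were not called did for Agt, Ren1, Agtr1a and Enpep, and values that were not called did for every member in other comparisons. The number of members called between UUO and CL changed as follows. In IgG it was 2, 4 with name form and Xist as covariates (chosen after seeing the data), 3 with name form, with Xist, without a filter and in split libraries only, and 1 without TMM. In ABT it was 3, 2 by the exact test, 1 without TMM and 1 in plain libraries only. In VeWT it was 0, 1 with all 12 groups in 1 fit, and 2 with name form, 2 with name form and Xist, and 2 in split libraries only. In VeKO it was 0, 1 with all 12 groups, 1 by DESeq2, 1 with Xist, 1 without CL replicate 2, 1 without libraries holding Xist and Y genes, and 3 with name form, 3 with both and 3 in split libraries only. In PbKO it was 1, and 0 with all 12 groups, 0 by DESeq2, 0 by the exact test, 0 without a filter and 0 without TMM. In PbWT it was 3, 2 with all 12 groups (Ren1 lost) and without TMM (Atp6ap2 lost), and 4 by the exact test, without a filter and with Xist (Mme gained). Between PbKO and PbWT UUO it was 2, 0 with all 12 groups and 0 without TMM. Leaving out 1 library gave 0 to 1 in VeWT, VeKO and PbKO, 2 to 3 in IgG and ABT, 3 to 4 in PbWT and 0 to 2 between PbKO and PbWT UUO. The causes were not tested. Leaving out TMM moved the median log2 fold change of all genes to 0.23 in IgG, 0.41 in PbWT and -0.29 between PbKO and PbWT UUO.

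With the shared number as a replicate block, 2 members were called in VeWT (Ace -0.82, Agt 0.47) and 2 in VeKO (Ace -0.70, Agt 0.77), and the IgG and ABT counts stayed at 2 and 3. In the Veptp arm same-numbered libraries correlated at 0.0684 to 0.481, and 4 of the 8 numbers carry opposite genotypes. Those 4 gave r of 0.481, 0.312, 0.149 and 0.305, and the others 0.217, 0.442, 0.0684 and 0.145. By the measure used for ABT these numbers would pair libraries too, and the conflict with the genotype labels was not resolved. The blocks of this arm hold every split library and no plain one, so they also take up the name form.

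Over all genes, 2194 were called in VeWT, 4043 with name form, 3955 with both covariates, 3551 with the block, 1089 in plain libraries and 814 without the 8 libraries of opposite genotype. In VeKO the counts were 948, then 2562, 3092, 2437, 0 and 108 in that order, 2651 in split libraries, 1793 with all 12 groups and 1499 with Xist. Plain libraries alone gave 2074 in IgG and 1031 in ABT. All 12 groups in 1 fit gave 2502 in PbWT, 125 in PbKO, 322 between PbKO and PbWT UUO and 10 for their interaction, and no TMM gave 3159 between PbKO and PbWT UUO. Comparisons with 0 genes called had at most 16 under an alternative. The exact test of interactions and the Pdgfb arm without libraries holding Xist and Y genes were not run. Single libraries held as few as 2 counts of Ren1 and of Agtr1a and 4 of Agt and of Enpep, which limits the precision of these values.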
